A study of Mus musculus with 17 samples.

Results

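The genes described here are 10 inflammatory cytokines and receptors, taken by their symbols: Il1a, Il1b, Il18, Tnf, Tgfb1 and Csf1, which encode secreted or membrane-bound ligands, Il1rn, which encodes the soluble antagonist of the interleukin-1 receptor, and Il10ra, Tnfrsf1b and Tlr2, which encode receptors. Tlr2 binds microbial and damage-associated lipids and proteins rather than a cytokine, so the set holds 2 cytokine receptors. Of the 10, 9 were among the 20328 genes with RNA-seq counts, and Tnf was not listed there. Each of those genes has at least 1 count in every library, and the 9 genes passed the filter on low counts that left 19300 genes for testing. All 10 were among 26646 genes of the scRNA-seq table, while 2 had a region in the CUT&RUN table for H3K27ac (acetylated lysine of histone H3, a mark of active promoters and enhancers) and 2 in the ATAC-seq table of open chromatin.

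Brain tissue came from wild-type ICR mice in 3 groups. Healthy controls (sham) had no lesion. The 6-OHDA-induced PD model received the toxin 6-hydroxydopamine, which kills catecholamine neurons, by injection on one side into the substantia nigra at 8 weeks of age (10 µg/µl, for 4 min at 0.5 µl/min) and saline afterwards. The NDST3-treated PD model carried the same lesion and received 2 µl of an AAV vector for NDST3, an enzyme of heparan sulfate synthesis, into the same site 5 days later. A CMV promoter, which is not specific to a cell type, drives the vector, and a group with a vector lacking NDST3 is not among these samples, so an effect of NDST3 and one of the vector or its injection cannot be told apart. RNA-seq covered 2 sham libraries, 1 library of the PD model and 2 of the NDST3-treated PD model. ATAC-seq and scRNA-seq had 1 library per group, with no sham column in the scRNA-seq table, and CUT&RUN had 2 libraries per group but 1 column each. The labels call the RNA source brain and do not say how many mice gave each library.

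Interleukin-1 alpha and beta share a receptor that signals through MyD88 to NF-kB, and Il1rn competes for it without signalling. Tumour necrosis factor acts through its receptor Tnfrsf1a and through Tnfrsf1b, the latter found mainly on immune and endothelial cells, and Tlr2 joins the same MyD88 route. Tgfb1 and interleukin-10 restrain inflammation, and Csf1 keeps microglia alive through its receptor Csf1r. In the brain, microglia are a main source of several of these factors, and infiltrating myeloid cells add to them after injury.

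On the mouse build GRCm38.p6, 3 of the genes lie on chromosome 2, Il1rn at chr2:24336860-24351491 (NCBI Gene 16181), Il1a at chr2:129299609-129310186 (16175) and Il1b at chr2:129364569-129371164 (16176), the last a close neighbour of Il1a. Chromosome 3 holds Tlr2 at chr3:83836272-83841824 (24088) and Csf1 at chr3:107741048-107760469 (12977). Chromosome 9 holds Il10ra at chr9:45253837-45269149 (16154) and Il18 at chr9:50554700-50581841 (16173). The others are Tnfrsf1b at chr4:145212368-145246870 (21938), Tgfb1 at chr7:25687002-25705077 (21803) and Tnf at chr17:35199367-35202007 (21926).

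The libraries differed beyond their groups. Total counts ran from 51003699 to 70533326, and TMM factors, which correct for composition, from 0.979 to 1.016. The list of 6 dopaminergic neuron markers summed to 708 and 666 CPM (read counts scaled to equal library size) in sham, 22.8 in the PD model and 108 and 84.6 after NDST3, in the order that the lesion labels imply. The 5 choroid plexus markers, led by Ttr, summed to 1130 CPM in the second NDST3-treated library but to between 9.93 and 52.5 CPM in the other libraries, so that library stands apart. The first sham library had 200 CPM of the 7 macrophage or monocyte markers and the second 40.9. Fold changes are given below with all libraries, and again without 1 library where that moves them or a call.

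The first comparison asked which of the genes differed in the lesioned brain, and 8 of 9 rose. Il1rn rose most by fold and Csf1 least, while Il18 did not pass the test. Against this, 18.8% of all 19300 genes were called higher by edgeR's quasi-likelihood test at a Benjamini-Hochberg adjusted p under 0.05, and 17.1% lower. The median log2 fold change was 3.01 over the 9 genes and -0.002 over all genes. By a second rule, which the study used (a change of 2-fold or more and an unadjusted p under 0.05, here the fold rule), again 8 rose, beside 14.4% of all genes higher and 10.1% lower. The order of libraries was also shared: in 8 of 9 genes both NDST3-treated libraries lay above both sham libraries and below the PD model, as they did in 19.9% of all genes. In bulk tissue, fewer cells of a type and less RNA per cell cannot be told apart.

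**Figure D1:**
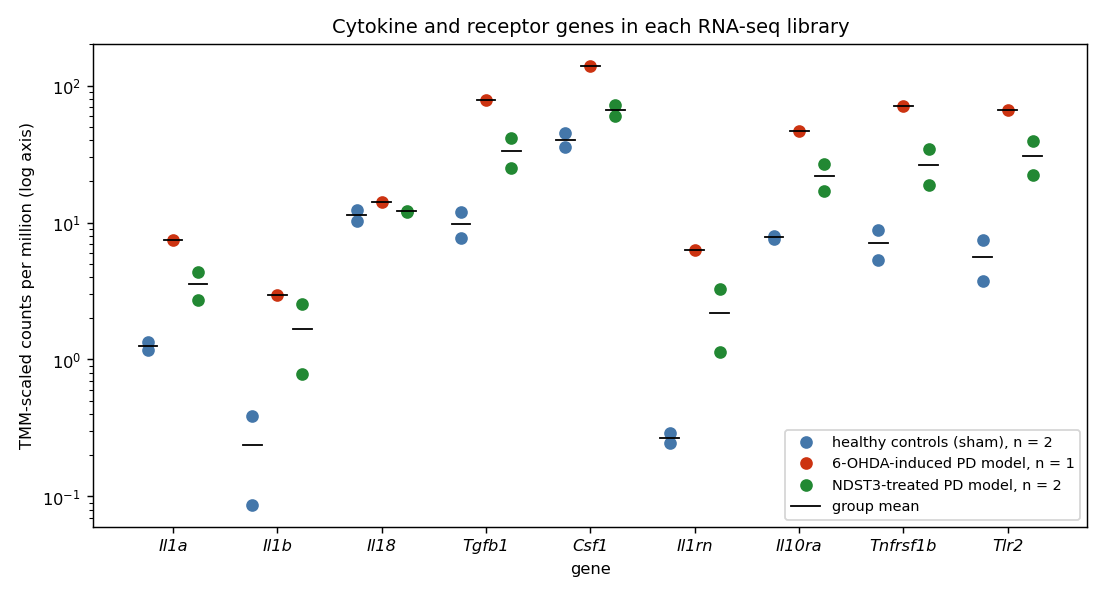
TMM-scaled CPM (log axis) of the 9 genes listed in the RNA-seq table, with 1 point per library and a bar at each group mean. For every gene but Il18 the PD model (n = 1) is highest, the sham libraries (n = 2) are lowest and the NDST3-treated libraries (n = 2) lie between them.

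Among the interleukin-1 ligands, Il1a was at 1.34 and 1.17 CPM in the sham libraries, 7.51 in the PD model and 2.74 and 4.32 in the NDST3-treated libraries. The PD model stood above both other groups without overlap, and Il1a rose by a log2 fold change of 2.58 (standard error, SE, 0.356, adjusted p = 0.00955 by edgeR). Il1b, which is made as a precursor and cut by caspase-1, was the scarcest of the ligands listed (Tnf has no counts here), at 20 and 6 counts in sham, 154 in the PD model and 47 and 152 after NDST3. In CPM these were 0.388, 0.0869, 2.98, 0.789 and 2.55. The sham libraries differed 4.47-fold and the NDST3-treated libraries 3.23-fold, the second of them close to the PD model. Il1b still rose over sham, by 3.69 on the log2 scale (SE 0.993, adjusted p = 0.0424 by edgeR), with the largest error of the 9 genes.

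Il1rn, the antagonist of both, was counted 15 and 17 times in sham, 323 times in the PD model and 67 and 195 times after NDST3. That is 0.291 and 0.246 CPM, 6.25 CPM, and 1.13 and 3.27 CPM. Sham was low and even, and the PD model was highest without overlap. The log2 fold change of 4.54 (SE 0.684, adjusted p = 0.0107 by edgeR), or 23.2-fold, was the largest of the set. Per length, Il1rn (2.38 FPKM, fragments scaled by gene length and library depth) and Il1b (2.07 FPKM) were at like levels in the PD model, as they were in sham, where their libraries overlapped (0.0951 ± 0.0201 and 0.114 ± 0.105 FPKM, SD, n = 2).

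Il18, another ligand that caspase-1 releases, did not follow this pattern. It was at 12.4 and 10.2 CPM in the sham libraries, 14.1 CPM in the PD model, and 11.9 and 12.2 CPM in the NDST3-treated libraries. The last 2 lay within the sham range, and the PD model was slightly above all others. Its log2 fold change in the PD model was 0.32 (SE 0.182, adjusted p = 0.22 by edgeR). Its decoy, Il18bp, which binds and blocks the cytokine, rose by 3.41 (SE 0.53, adjusted p = 0.0113 by edgeR), from 1.71 and 1.19 to 15.4 CPM. It was the 1 called gene of the 2 tested in the list of further interleukin-1 and interleukin-18 ligands and decoys.

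Tgfb1 was at 11.9 and 7.65 CPM in the sham libraries, 78.7 in the PD model and 24.8 and 41.5 in the NDST3-treated libraries. Its groups did not overlap, and it rose by a log2 fold change of 3.01 (SE 0.381, adjusted p = 0.00876 by edgeR). Csf1 was at 44.8 and 35.4 CPM in sham, 139 in the PD model and 60.3 and 72.2 after NDST3. Its log2 fold change was 1.80 (SE 0.185, adjusted p = 0.00823 by edgeR), a smaller fold than the other called genes from a higher base and with the smallest error among them.

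The receptors rose as well. Il10ra, the ligand-binding chain of the interleukin-10 receptor, was at 8.0 and 7.56 CPM in sham, 46.5 in the PD model and 17.0 and 26.8 in the NDST3-treated libraries. Its sham libraries differed by only 1.06-fold, and the log2 fold change was 2.58 (SE 0.278, adjusted p = 0.00823 by edgeR). Tnfrsf1b was at 8.87 and 5.33 CPM in sham, 71.1 in the PD model and 18.7 and 34.3 in the NDST3-treated libraries. The PD model was 10.0-fold above sham by the fit (log2 fold change 3.33, SE 0.443, adjusted p = 0.00914 by edgeR). Tlr2 was at 7.42 and 3.75 CPM in sham, 65.9 in the PD model and 22.2 and 39.2 in the NDST3-treated libraries. Its log2 fold change was 3.57 (SE 0.492, adjusted p = 0.00955 by edgeR), and its sham libraries differed 1.98-fold, the first being the one richer in macrophage or monocyte markers.

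Per length, the order of the genes changed between groups. In sham, Csf1 (9.22 ± 1.90 FPKM, SD, n = 2) and Il18 (8.79 ± 1.45 FPKM) led and overlapped, followed by Tgfb1 at 4.2 ± 1.44 FPKM. Il10ra (2.07 FPKM), Tlr2 (1.80 FPKM) and Tnfrsf1b (1.35 FPKM) came next with overlapping neighbours, then Il1a at 0.583 FPKM, and Il1b and Il1rn last. In the PD model, Tgfb1 (34.1 FPKM) and Csf1 (32.7 FPKM) led, and Tlr2 (21.7 FPKM), Tnfrsf1b (13.6 FPKM) and Il10ra (12.6 FPKM) all stood above Il18 (11.0 FPKM). With 1 library, neighbours in that order have no spread to be set against. After NDST3 the first 4, Csf1, Tgfb1, Tlr2 and Il18 at 15.7 to 9.48 FPKM, each overlapped the next.

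The PD model has no replicate, so its tests borrow the spread of the replicated groups. Without either sham library, none of the 8 calls held by edgeR: the adjusted p of these genes lay between 0.0516 and 0.0824 without the first sham library and between 0.0832 and 0.177 without the second, and 0 of all genes were called in both fits. At an unadjusted p under 0.05 those fits had 8 and 7 of the 9 genes, and 7499 and 6284 of all genes. Each fold change stayed positive, and that of Il1b moved most on the log2 scale, to 5.07 without the first sham library and 2.93 without the second. DESeq2, with all libraries, called the same 8, beside 38.8% of all genes in either direction.

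The second comparison asked what differed after NDST3 treatment. Of the 9 genes 1 passed the test: Csf1 fell by 1.07 on the log2 scale (SE 0.186, adjusted p = 0.0361 by edgeR), to 43.3% and 51.8% of the PD model in the 2 libraries. All 9 had negative log2 fold changes, with a median of -1.09, against a median of 0.003 over all genes. Of all genes, 6.59% were called lower and 9.06% higher. By the fold rule, 5 of the 9 fell (Csf1, Il1a, Tgfb1, Il10ra and Tnfrsf1b), beside 8.37% of all genes lower and 7.3% higher.

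Among the genes that did not pass, the receptors had log2 fold changes of -1.09 for Il10ra (SE 0.277), -1.42 for Tnfrsf1b (SE 0.434) and -1.10 for Tlr2 (SE 0.48), with adjusted p-values of 0.0586, 0.0823 and 0.164 by edgeR. The values for Il1a, Tgfb1 and Il1rn were -1.09 (SE 0.352), -1.25 (SE 0.377) and -1.51 (SE 0.623), with adjusted p-values of 0.0924, 0.0811 and 0.148 by edgeR. Il1b had -0.84 (SE 0.924, adjusted p = 0.543 by edgeR) and Il18 -0.23 (SE 0.182, adjusted p = 0.406 by edgeR). For Il1b the error exceeds the change itself, and leaving out 1 treated library moved its value to -0.23 (without the first) or -1.94 (without the second).

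The 2 treated libraries were not alike for these genes. In all 9 the second was higher than the first, by 1.02-fold for Il18 and 1.20-fold for Csf1, by 1.58-fold to 1.83-fold for Il1a, Il10ra, Tgfb1, Tlr2 and Tnfrsf1b, and by 2.90-fold and 3.23-fold for Il1rn and Il1b. Over all genes, the second was higher in 50.7%. The second library is the one with the high choroid plexus markers. Without it, edgeR called 5 of the 9 genes lower than the PD model (Csf1, Il10ra, Tgfb1, Tnfrsf1b and Il1rn), beside 7.56% of all genes lower and 8.94% higher. The log2 fold changes in that fit were -2.50 for Il1rn, -1.96 for Tnfrsf1b, -1.94 for Il1b, -1.70 for Tgfb1, -1.60 for Tlr2, -1.49 for Il1a, -1.49 for Il10ra, -1.24 for Csf1 and -0.27 for Il18. Each was further from 0 than with both treated libraries. With the second as the only treated library they were nearer to 0, at -0.94 for Il1rn, -1.05 for Tnfrsf1b and between -0.95 and -0.21 for the others. Without the first treated library, or without either sham library, edgeR called 0 of the 9, with 4 of 9 at an unadjusted p under 0.05 in each of those fits. Over all genes those fits called 1, 0 and 0, with 5725 to 5994 genes at an unadjusted p under 0.05. Csf1 had an adjusted p of 0.105 at most in these 4 fits, and its log2 fold change lay between -1.24 and -0.95.

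Compared with healthy controls, the 9 genes had a median log2 fold change of 1.77 in the NDST3-treated PD model, against 0.01 over all genes. However, no gene of the whole table passed by edgeR (0.0% higher and 0.0% lower). At an unadjusted p under 0.05, 8 of the 9 and 2744 of all genes did, and DESeq2 called 8 of the 9 and 1023 of all genes (4.28% higher and 1.02% lower) by adjusted p. The fold rule gave 7 of 9 higher, beside 4.78% of all genes higher and 1.08% lower. Log2 fold changes were 3.03 for Il1rn, 2.85 for Il1b, 2.47 for Tlr2, 1.91 for Tnfrsf1b, 1.77 for Tgfb1, 1.49 for Il1a, 1.49 for Il10ra, 0.72 for Csf1 and 0.10 for Il18, with adjusted p-values between 0.152 and 0.801 by edgeR. Of the 8 genes called with the lesion, Csf1 was nearest to its sham level, at 1.5 and 1.8 times the sham mean, while Tlr2 stood at 3.97 and 7.02 times and Il1rn at 4.19 and 12.2 times. Without the first treated library, 2 of the 9 genes passed by edgeR (Il10ra and Il1rn, with log2 fold changes of 1.78 and 3.60), beside 111 of all genes (0.454% higher and 0.125% lower). Without the second, 0 of the 9 and 1 of all genes passed, and these 2 were at 1.10 and 2.04, with Il1b at 1.76, Tlr2 at 1.97, Tnfrsf1b at 1.38, Tgfb1 at 1.33, Il1a at 1.10, Csf1 at 0.57 and Il18 at 0.06. The 3 comparisons share libraries: the PD model and the NDST3-treated libraries each enter 2 of them, as do the sham libraries.

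**Figure D2:**
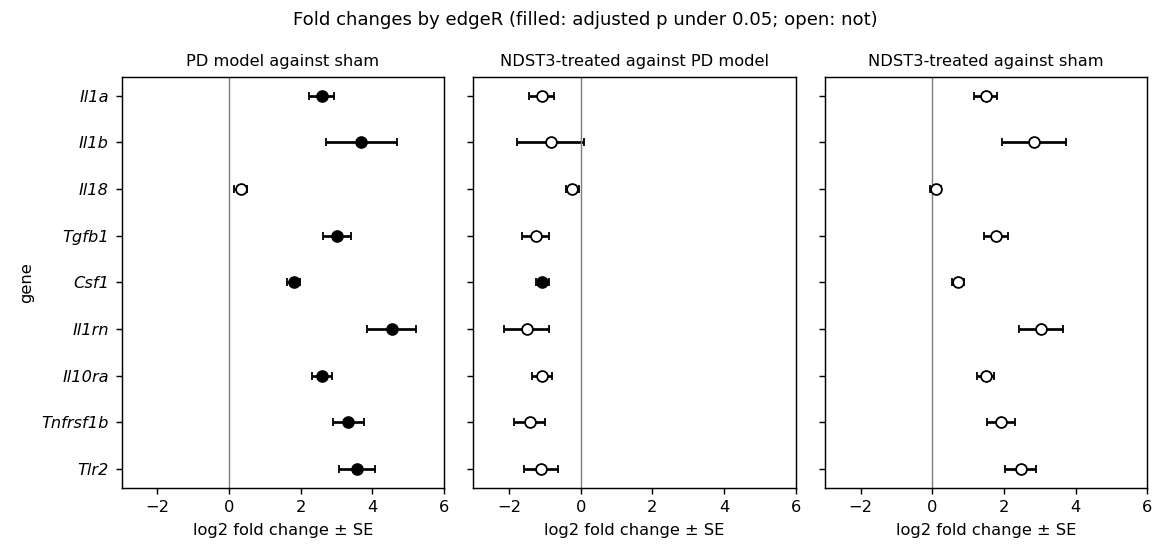
Log2 fold changes with their standard errors (edgeR) of the 9 genes in the 3 comparisons, with filled points where the adjusted p is under 0.05. In the first panel 8 of 9 points are filled and positive, in the second 1 of 9 (Csf1, -1.07), and in the third none.

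The wider signalling system was followed with 145 other genes in 11 lists, of which 136 were tested. In the PD model, 98 of them rose and 2 fell, with a median log2 fold change of 1.70, where 18.8% of all genes rose and 17.1% fell. After NDST3, against the PD model, 30 fell and 1 rose, with a median of -1.02, where 6.59% of all genes fell and 9.06% rose, and against sham none passed by edgeR (42 passed the fold rule, all higher). The counts of 30 and 1 became 48 and 3 without the second treated library, and 0 without the first treated library or without either sham library; the 98 and 2 also became 0 without either sham library. Each list's count below is to be read against these shares of all genes, and in small lists 1 or 2 calls after NDST3 are close to them.

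Around interleukin-1, 5 of 8 receptor genes rose with the lesion and none fell. They were led by Il18rap, the signalling chain of the interleukin-18 receptor (log2 fold change 2.96, adjusted p = 0.0166 by edgeR), and Il1rl2, the receptor of interleukin-36 (2.94, adjusted p = 0.0103 by edgeR). Of 8 inflammasome genes, whose products mature Il1b and Il18, 7 rose. Casp4, the non-canonical inflammasome protease (called caspase-11 in mice), went from 0.563 and 0.29 to 10.7 CPM (4.67, adjusted p = 0.00879 by edgeR), and the adaptor Pycard from 2.95 and 1.56 to 23.7 CPM (3.40, adjusted p = 0.00869 by edgeR). After NDST3 none of these 16 genes passed, though all 16 had negative log2 fold changes, with medians of -1.26 and -1.27 in the 2 lists.

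Around tumour necrosis factor, 4 of 7 ligands rose, among them Tnfsf8 (3.02, adjusted p = 0.0121 by edgeR) and Tnfsf13 (1.98, adjusted p = 0.0221 by edgeR). Tnfsf13, the B cell factor APRIL, was the 1 ligand that fell after NDST3, by 2.23 on the log2 scale (adjusted p = 0.0378 by edgeR), from 5.89 to 1.09 and 1.41 CPM, which are within or just below the sham levels of 1.88 and 1.10. Of 15 receptors and adaptors, 11 rose and 1, the adaptor Traf3, fell by 0.87 (adjusted p = 0.0457 by edgeR). The adaptor Traf1, itself an NF-kB target, and the receptor Tnfrsf13b, a receptor of APRIL, had log2 fold changes of 3.01 and 2.72 (adjusted p = 0.0126 and 0.00966 by edgeR). Of these 15, 6 fell after NDST3, with Traf1 down by 2.26 (adjusted p = 0.0448 by edgeR) and the death receptor Fas down by 1.42 (adjusted p = 0.0468 by edgeR).

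Around Tgfb1, 10 of 20 genes rose, led by its receptor Tgfbr1 (2.54, adjusted p = 0.00911 by edgeR) and by Thbs1, a matrix protein that can release the latent factor (2.51, adjusted p = 0.0139 by edgeR). After NDST3, 7 fell. Thbs1 fell by 2.27 on the log2 scale (adjusted p = 0.0384 by edgeR), to 5.9 and 9.77 CPM beside 8.54 and 4.76 in sham, and Nrros, which anchors latent Tgfb1 on microglia, fell by 1.26 (adjusted p = 0.0418 by edgeR). Around interleukin-10 and interferon gamma, 12 of 14 rose and 7 fell after NDST3. The partner chain Il10rb rose by 2.38 and then fell by 1.38 on the log2 scale (adjusted p = 0.00871 and 0.0457 by edgeR), the feedback inhibitor Socs3 rose by 3.08 (adjusted p = 0.0186 by edgeR), and the transcription factor Stat6 fell by 1.23 after NDST3 (adjusted p = 0.0492 by edgeR).

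Among colony-stimulating factors and receptors, 5 of 9 rose and 1 fell. They were led by Csf2rb2, a chain of the mouse interleukin-3 receptor (4.10, adjusted p = 0.00915 by edgeR), and Csf2rb, the chain common to the receptors of interleukin-3, interleukin-5 and GM-CSF (3.68, adjusted p = 0.00847 by edgeR), with the caveat that they are near-identical copies whose reads the counting may split. Flt3, a receptor of early blood cells that some neurons also express, went the other way: it fell by 1.64 with the lesion (adjusted p = 0.0122 by edgeR) and was the 1 pathway gene to rise after NDST3 (1.14, adjusted p = 0.048 by edgeR). Of 21 Toll-like receptors and adaptors, 18 rose, led by the RNA sensors Tlr8 (4.61, adjusted p = 0.00963 by edgeR) and Tlr7 (3.99, adjusted p = 0.00823 by edgeR). The 3 that fell after NDST3 included Tlr4, the endotoxin receptor, by 1.45, and the shared adaptor Myd88, by 1.22 (adjusted p = 0.0416 and 0.0359 by edgeR).

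Of 17 genes of NF-kB and its feedback, 12 rose, led by the co-regulators Bcl3 (3.11, adjusted p = 0.00847 by edgeR) and Nfkbiz (2.51, adjusted p = 0.0155 by edgeR). After NDST3, 4 fell, among them Zfp36, which destabilises cytokine mRNAs such as that of Tnf, by 1.18, and the subunit Rel by 1.14 (adjusted p = 0.0469 and 0.0431 by edgeR). In the last list, 13 of 15 interleukin genes rose, led by the shared gamma chain Il2rg (3.77, adjusted p = 0.0104 by edgeR) and the oncostatin M receptor Osmr (3.03, adjusted p = 0.0102 by edgeR). The 2 that fell after NDST3 were the receptor Il3ra, by 1.83, and the ligand Clcf1, by 1.80 (adjusted p = 0.0484 and 0.0433 by edgeR).

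**Figure D3:**
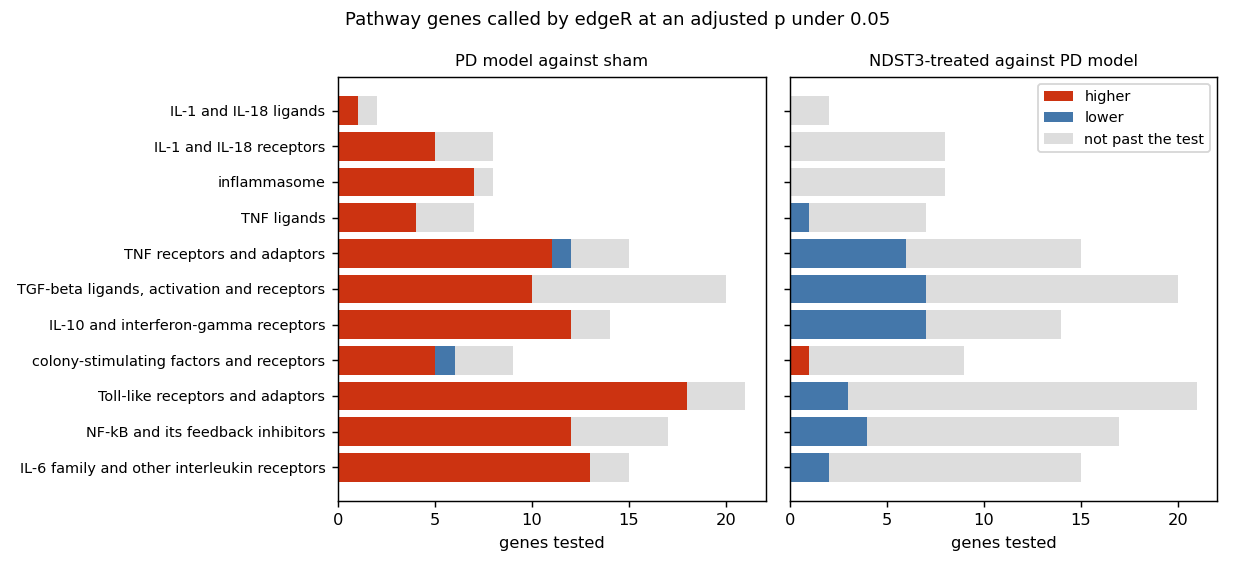
Number of genes tested in each of the 11 pathway lists, split into those called higher, called lower and not past the test by edgeR at an adjusted p under 0.05, for the lesion (left) and for NDST3 treatment of the lesioned mice (right). Calls are nearly all higher in the first panel (98 of 100) and nearly all lower in the second (30 of 31).

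Markers of several cell types differed between the libraries along with these genes. All 8 microglia markers were listed, and they summed to 259 to 333 CPM in sham, 1950 CPM in the PD model and 671 to 1130 CPM after NDST3. The 7 macrophage or monocyte markers summed to 40.9 to 200 CPM, 2890 CPM and 635 to 1090 CPM, of which Lyz2 alone was 2800 CPM in the PD model. Without Lyz2 the other 6 summed to 17.2 to 32.2 CPM in sham, 81.9 CPM in the PD model and 16.0 to 28.4 CPM after NDST3, within or just below the sham range, and Cd163 was lower in the treated libraries (1.19 and 0.787 CPM) than in sham (5.01 and 1.93 CPM). Of 8 neutrophil markers 4 were listed (S100a8, Retnlg, Camp and Ltf were not), with 10.8 to 14.2 CPM, 108 CPM and 37.8 to 67.2 CPM. Csf3r, also a gene of the pathway lists, made up 99.3 of the 108 CPM, while Mmp9 lay between 2.48 and 2.93 CPM in all 5 libraries. In all 3 lists the second treated library was higher than the first, as it was for the cytokines. Lists of T cell, B cell, innate lymphoid or NK cell, endothelial, smooth muscle, astrocyte and choroid plexus markers had that order too. In 2 of these it rested on 1 gene. Without Rora the innate lymphoid or NK cell list was at 23.6 CPM in the first treated library and 15.7 in the second. Without Gfap the astrocyte list was at 4340 and 4180 CPM. The oligodendrocyte, neuron and dopaminergic neuron lists had the reverse order. The median log2 fold change with the lesion was 1.81 for microglia markers and 3.40 for macrophage or monocyte markers, with 7 of 8 and 4 of 7 called higher by edgeR. After NDST3, against the PD model, 0 of 8 and 2 of 7 were called lower. Markers outside the immune cells moved too. The 8 smooth muscle, mural or fibroblast markers summed to 324 to 480 CPM in sham, 1320 CPM in the PD model and 240 to 307 CPM after NDST3. Of them 6 were called higher with the lesion and 7 lower after NDST3 (median log2 fold change -2.44), the most called lower after NDST3 of any marker list. Of 7 astrocyte markers 4 were called higher with the lesion, and of 6 endothelial markers 2 were, with 3 lower after NDST3. All 7 neuron markers were called lower with the lesion and 5 higher after NDST3. The part of cell numbers in the changes of the 9 genes was not tested. T cell markers, of which 3 of 8 were listed, summed to 3.83 to 5.95 CPM over all libraries.

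**Figure D4:**
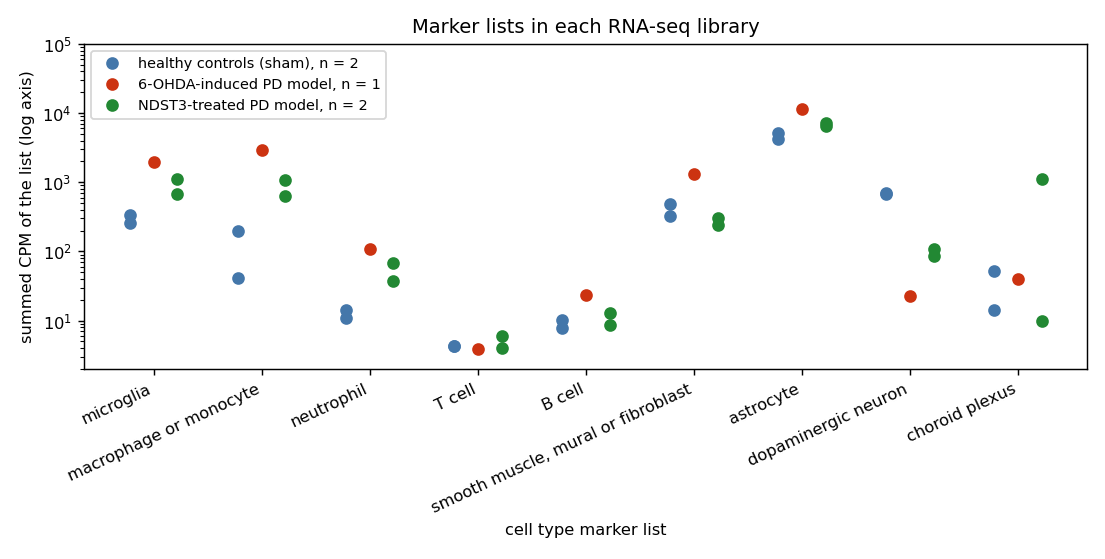
Summed CPM (log axis) of 9 lists of cell type markers in each RNA-seq library, coloured by group. Microglia, macrophage or monocyte, neutrophil and smooth muscle, mural or fibroblast markers are highest in the PD model, where dopaminergic neuron markers are lowest (22.8 CPM), and choroid plexus markers reach 1130 CPM in 1 NDST3-treated library.

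The scRNA-seq table shows in which clusters of dissociated cells these transcripts were counted, after the lesion with and without NDST3. Cells had been freed enzymatically and cleared of myelin on a density gradient. An effect of this handling on the transcripts was not tested, so the log means are not levels measured in the intact tissue. Against doublets, per the study's methods, cells with very many detected genes were dropped, and no doublet caller could be run on a table of means. The table gives a mean per gene, group and cluster for 9 clusters made by the authors. The values have the range of natural logs, ln(1 + counts per 10000 molecules of a cell), and are called log means here. Cluster sizes are not in the table, so the number of cells behind a mean is unknown, and with 1 library per group no test was made. By the marker lists, cluster 1 was neutrophil-like (8 of 8 markers highest there, led by S100a9), cluster 4 T cell-like (8 of 8) and cluster 9 B cell-like (7 of 7). Cluster 7 was endothelial-like (6 of 6) and cluster 5 smooth muscle-like (6 of 8, led by Acta2). Cluster 6 was microglia-like (7 of 8), and its leading genes were headed by Ccl4 and included P2ry12, Tmem119, Atf3 and Ccl3. Cluster 3, led by Apoe, Spp1 and Gpnmb, had 4 of 7 macrophage or monocyte markers at their highest but none among its 10 leading genes. Averaged over both groups, 3 of these 7 and all 8 microglia markers had a log mean above 0.1 there. The microglia markers averaged 0.825 in the PD model and 0.766 after NDST3, and the macrophage or monocyte markers 0.639 and 0.595. Cluster 8, led by Gm20186, Il23r and Dusp10, showed markers of T cells and of innate lymphoid cells, and cluster 2, with Dbi, Mt3 and Clu, showed markers of astrocytes, neurons, oligodendrocytes and choroid plexus, so these 3 are called by number.

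Most of the 10 genes were highest in the clusters of myeloid genes, but not in the same cluster. Il1b was highest in neutrophil-like cluster 1, with log means of 2.955 before and 2.960 after NDST3 (the PD model is given first in what follows), then in cluster 3 (2.457 and 2.379) and in microglia-like cluster 6 (1.242 and 1.472). Il1a had another order, with cluster 6 first (1.752 and 1.917), cluster 3 second (1.223 and 1.370) and cluster 1 at 0.260 in the PD model. Il1rn was above a log mean of 0.1 in 2 clusters only in each group, cluster 1 (1.111 and 1.142) and cluster 3 (0.666 and 0.665), and was at 0.087 in cluster 6 of the PD model. Both of these clusters were also the first for Il1b, and Il1rn was low where Il1a was highest.

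Tnf, which the RNA-seq table does not list, was highest in microglia-like cluster 6 (1.369 and 1.477), then in cluster 3 (0.963 and 0.906) and cluster 1 (0.833 and 0.748). Csf1 had the same first cluster at a lower level (0.714 and 0.819). Tgfb1 was the broadest, above 0.5 in 7 of 9 clusters in each group: the PD model had 1.392 in both cluster 3 and cluster 6 and 1.380 in B cell-like cluster 9. Il18 was the opposite case, never above 0.5, with its highest log means in cluster 2 (0.355 and 0.307) and cluster 6 (0.211 and 0.236).

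Of the receptors, Tlr2 was highest in cluster 3 (1.752 and 1.760), then in cluster 6 (1.295 and 1.388) and cluster 1 (1.163 and 1.113). Il10ra was highest in cluster 6 (1.293 and 1.281) with cluster 1 second (0.880 and 0.881). Tnfrsf1b was highest in cluster 1 (1.288 and 1.378), and its second was T cell-like cluster 4 (0.897 and 1.234), where Il18 and Il1rn stayed below 0.05.

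Genes with the most similar profile were sought over the 18 means (9 clusters in 2 groups) among up to 4732 genes whose highest mean was at least 0.5; the means share their cells and libraries, so Pearson's r is given as a description. Il1a was nearest to Slc7a8 (0.997), C3ar1 (0.996) and Pla2g15 (0.994), and Il1b to Igsf6 (0.987), Csf2rb (0.986) and Cd14 (0.986). Il1rn was nearest to Lilr4b (0.992), Arg2 (0.992) and Lilrb4a (0.991), and Tnf to Arrb2 (0.976), Ccl4 (0.976) and Ccl3 (0.975). Tlr2 followed Cd68 (0.989), Osm (0.989) and Lrmda (0.987), and Il10ra followed Abi3 (0.977), Irf5 (0.975) and Cd33 (0.971). The remaining profiles were less closely matched: Tnfrsf1b with Slfn2 (0.955), Rab10 (0.954) and Itgb2 (0.946), Csf1 with Cflar (0.958), Fnip2 (0.956) and Sirpa (0.954), Tgfb1 with Ptbp3 (0.965), Bcl10 (0.921) and Grb2 (0.915), and Il18 with Rnf13 (0.927), Plxnb2 (0.924) and Arhgap39 (0.918).

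Between the 2 groups, few log means within a cluster differed by at least 0.5 on the log2 scale. The rule uses differences of log means, so pairs low in both groups could not meet it, even with all signal lost. Tlr2 in cluster 2 (0.215 and 0.074) is such a pair. Of 72 gene and cluster pairs with a log mean above 0.1 in either group, 1 differed by at least 0.5 on the log2 scale. This was Tgfb1 in B cell-like cluster 9, which was lower after NDST3 by a log2 difference of -0.54 (1.380 and 1.008). Over all genes, 0.258% of 63984 such pairs were lower and 0.272% higher by this rule, and in cluster 9 2.18% of detected genes passed it in either direction. The B cell markers of that cluster had average log means of 2.463 and 2.245, with 5 of 7 lower after NDST3. The next largest difference was Tnfrsf1b in T cell-like cluster 4, with a log2 difference of 0.49. All 8 T cell markers were also higher there after NDST3, with average log means of 1.431 and 1.979. The part of a changed mix of cells within these clusters was not tested.

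In microglia-like cluster 6, 8 of the 10 genes were higher after NDST3 and 2 lower, with a median log2 difference of 0.09, and the largest were Il1b (0.33) and Il1a (0.24). Of all genes detected in that cluster 55.9% were higher, and all 8 microglia markers were lower, with average log means of 1.495 and 1.389. In neutrophil-like cluster 1 the median was 0.00, with 6 genes higher and 4 lower, where 51.7% of all detected genes were higher. In cluster 3 the median was -0.01. In cluster 2, 9 of 10 were lower, from log means of 0.355 or less. The log2 differences of log means were at most 0.20 in size (Tgfb1 and Tlr2), which at such low means understates the fold change. With the log undone, the log means of Tgfb1 there were 0.293 and 0.124, and those of Tlr2 0.24 and 0.0767. All 8 microglia markers were also lower in cluster 2, with average log means of 0.223 and 0.146. The part of a changed mix of cells was not tested. Only 7 of the 10 exceeded 0.1 there in either group, and 53.0% of all detected genes were higher. Cluster 8 had 8 of 10 higher, among them Il1a (0.170 and 0.348) and Tlr2 (0.213 and 0.342), while Tgfb1 was lower there (1.150 and 0.933). In that cluster 8 of the 10 exceeded 0.1 in either group, and 55.5% of all detected genes were higher. The bulk libraries, in which the 9 genes were lower after NDST3, and these means within clusters differ in tissue handling and in unit, and were not tested against each other.

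**Figure D5:**
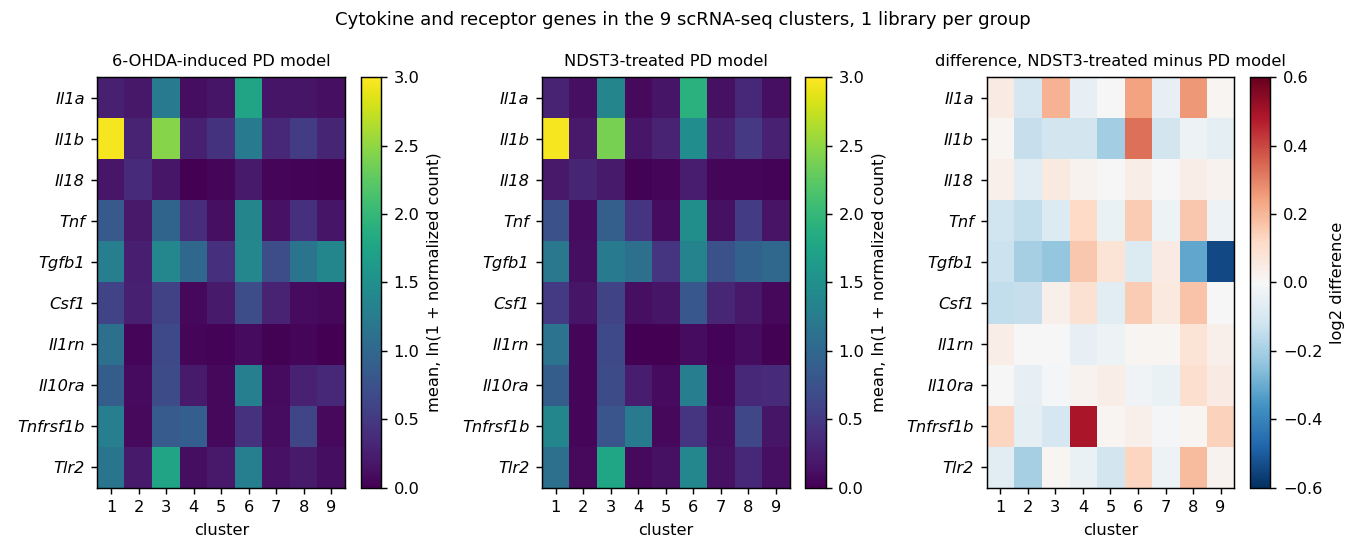
Deposited log means of the 10 genes in the 9 scRNA-seq clusters, without and with NDST3 (1 library each), and their difference on the log2 scale. Clusters 1, 3 and 6 carry most of the signal in both groups, and the strongest differences are Tgfb1 in cluster 9 (-0.54) and Tnfrsf1b in cluster 4 (0.49).

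Chromatin data touched 3 of the 10 genes: Tlr2 and Il18 had an H3K27ac region and Tlr2 and Tgfb1 an ATAC-seq region, each near a transcription start. Both tables list only regions within 1000 bases of a start site. Their positions are not those of GRCm38: 4.44% of the H3K27ac and 10.7% of the ATAC-seq regions lie within 2000 bases of an end of their named gene on that build. Region positions are therefore given as deposited and no sequence was read by them. The start sites of these 3 genes are shown instead as RefSeq promoter windows of GRCm38.p6, from 250 bases before to 50 bases after an annotated start, in lower case with matches to 4 fixed motifs of inflammatory transcription factors in capitals (NF-kB, AP-1 as TGANTCA, C/EBP as TTGCNNAA and PU.1 as GAGGAAGT, on both strands).
Tlr2, chr3:83841559-83841858, minus strand: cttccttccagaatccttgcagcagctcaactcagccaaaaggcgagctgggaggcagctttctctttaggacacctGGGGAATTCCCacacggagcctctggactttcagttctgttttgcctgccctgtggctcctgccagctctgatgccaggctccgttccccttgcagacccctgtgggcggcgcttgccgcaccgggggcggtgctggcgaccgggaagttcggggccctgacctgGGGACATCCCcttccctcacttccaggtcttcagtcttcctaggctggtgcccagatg
Tgfb1, chr7:25686752-25687051, plus strand: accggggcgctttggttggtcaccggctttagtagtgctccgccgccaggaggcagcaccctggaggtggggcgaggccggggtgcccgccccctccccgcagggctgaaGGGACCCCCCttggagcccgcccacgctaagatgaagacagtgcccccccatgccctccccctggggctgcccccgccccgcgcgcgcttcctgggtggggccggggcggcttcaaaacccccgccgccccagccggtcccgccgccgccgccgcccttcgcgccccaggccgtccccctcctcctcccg
Il18, chr9:50554450-50554749, plus strand: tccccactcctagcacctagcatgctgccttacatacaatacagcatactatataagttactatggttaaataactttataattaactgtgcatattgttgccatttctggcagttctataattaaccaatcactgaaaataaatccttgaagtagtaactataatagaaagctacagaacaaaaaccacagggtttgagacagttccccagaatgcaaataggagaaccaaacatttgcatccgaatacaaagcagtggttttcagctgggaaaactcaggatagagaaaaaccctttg
The Tlr2 window held 3 matches to the NF-kB motif, 2 of which overlap in 1 near-palindromic stretch, and the Tgfb1 window held 1, while the Il18 window held no match to any of the 4. Of 32851 windows, 8.46% held an NF-kB match, 7.81% an AP-1 match, 10.8% a C/EBP match and 3.2% a PU.1 match. Windows were found for 9 of the 10 genes, Il10ra being the exception. Of those not shown, 1 window of Csf1 held an NF-kB match and 1 each of Il1a and Il1rn an AP-1 match, and none was found in those of Il1b, Tnf and Tnfrsf1b. A match is a run of letters and not a measured binding site. The Il18 window was the poorest in G and C (36.7%), and that of Tgfb1 the richest (77.0%), with Tlr2 at 62.0%.

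The H3K27ac signal at Tlr2, in a region deposited as chr3:83748926-83749026 at -61 bases from the start, was 11.57 in sham, 16.90 in the PD model and 16.90 after NDST3. It was thus lowest in sham and equal in the other 2 groups, and the ratios after adding 1 to each signal were 1.42 for the PD model against sham and 1.00 after NDST3. At Il18 (chr9:50465953-50466137, 45 bases from the start) the signal was 16.63, 16.90 and 21.41, with ratios of 1.02 and 1.25. Neither region reached a ratio of 2 in any comparison, which 12.3% of 11326 regions did for the lesion, 11.1% for NDST3 against the PD model and 26.3% for NDST3 against sham. In none of the 11424 deposited regions was the NDST3-treated signal below that of the PD model, and in 425 it was equal, so the table cannot show a loss of H3K27ac after NDST3. The median ratio after NDST3 over all regions was 1.31, above those of Tlr2 and Il18.

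The ATAC-seq signal at Tlr2 (chr3:83748790-83748890, 75 bases from the start) was 7.9 in sham, 6.5 in the PD model and 10.0 after NDST3. It was lowest in the PD model, where its mRNA was highest, with ratios of 0.843 against sham and 1.47 after NDST3. At Tgfb1 (chr7:25386282-25386540, -16 bases from the start) it was 25.1, 39.0 and 33.9, highest in the PD model, with ratios of 1.53 and 0.872. Again no region reached a ratio of 2, as 9.64%, 7.94% and 14.3% of 3537 regions did in the same 3 comparisons. With 1 column per group in both assays there is no replicate check.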

How the data were processed

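RNA-seq, H3K27ac CUT&RUN, ATAC-seq and scRNA-seq tables of mouse brain were used as deposited. For RNA-seq, Trimmomatic, HISAT2 (mm10) and StringTie were run by the authors, who deposited raw read counts and FPKM per gene. The deposited scRNA-seq values are headed as mean counts, but their range and back-transformed sums (5620 to 7561 per column) match natural log values, ln(1 + x), of counts the authors normalized to 10000 per cell. The signal of CUT&RUN and ATAC-seq regions was deposited per group by the authors, with a scaling that is not given in the sources used here, and mm10 is named although positions differ from that build. Whether a CUT&RUN column pools its 2 libraries is not stated.

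Groups come from the sample titles. Counts were fitted with edgeR 4.0.16 (R 4.3.3; TMM factors, default filter, quasi-likelihood test, all 5 libraries in 1 fit, 2 residual degrees of freedom), with Benjamini-Hochberg adjustment over 19300 genes, and genes were called at an adjusted p under 0.05. The biological coefficient of variation was 20.3%, and total counts were 51003699 to 70533326. Nothing says that libraries of a group came from separate animals, so p-values may measure technical spread. On simulated data for the PD model against sham (19105 genes), the edgeR fit recovered 48 of 100 genes changed 2-fold and 92 of 100 changed 4-fold, with 8 of 148 calls false. The simulation gave all genes the same spread, lower than that fitted here, and changed 200 of them. In the libraries themselves 35.8% of genes were called for this comparison, so the simulated rates cannot be taken as those of these libraries. Alternatives were DESeq2 1.42.0, limma 3.58.1 (log2 of FPKM with 1 or 0.1 added), other scaling factors and filters, only the 2 groups compared, a replicate block, and leaving out each sham and NDST3-treated library. In scRNA-seq, a pair was counted where a mean exceeded 0.1 and the log2 difference was at least 0.5; 4 rows with duplicate names were left out. Region ratios used a pseudocount of 1, without regions under 1 in all groups or lacking a value.

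The 10 genes, the pathway and marker lists and the motifs were chosen with earlier results of these data known. Besides the 10 genes, the text names up to 2 pathway genes per list and direction with the largest fold change among those called, the 3 genes most like each member by Pearson's r over the cluster means, and the leading genes of clusters and marker lists. Tables of the authors' own comparisons were not used. Promoter sequences are from RefSeq, GRCm38.p6. Python 3.11.15, numpy 2.4.6, pandas 2.3.3 and matplotlib 3.10.9 were used.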

Additional observations from a re-analysis of the deposited data

How the results depend on the processing

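Of the 9 genes' 126 fold changes under the 14 alternatives in each of the first 2 comparisons none turned direction, and of 135 against sham after NDST3 1 did, that of Il18, with -0.04 without the second sham library and 0.24 without the first. For the PD model against sham, the calls of 8 genes and of 100 pathway genes ranged from 0 to 8 and from 0 to 102 when 1 library was left out in turn. For NDST3 treatment of the PD model, the calls of 1 gene and of 31 pathway genes ranged from 0 to 5 and from 0 to 51 in this way. The counts were 0 and 0 with only the 2 groups compared, 4 and 84 by DESeq2, 5 and 64 by the fold rule, and 0 and 11 by limma on log2(FPKM + 0.1). Against sham after NDST3, the 0 and 0 calls ranged from 0 to 2 and from 0 to 3 without 1 library, and were 8 and 50 by DESeq2 and 7 and 42 by the fold rule. The 1 scRNA-seq pair past the size rule became 0 at a difference of 1 and 5 at 0.25, and 1 ATAC-seq ratio passed at 1.5 (Tgfb1, PD model against sham). Over all genes, edgeR called 0 and DESeq2 1023 after NDST3 against sham, and 3019 and 5194 against the PD model. The cause was not tested for the tools; leaving out a library or fitting 2 groups leaves fewer residual degrees of freedom.

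The libraries share replicate numbers and nothing says that a number marks a shared animal or day. The deviations of same-numbered sham and NDST3-treated libraries had a Pearson r of -0.432 over all genes tested. With a replicate block, edgeR called 7 of the 9 genes and 47 pathway genes for the PD model against sham (5.22% of all genes higher and 4.08% lower, 1796 calls against 6916 without the block), 0 and 0 after NDST3 against the PD model, and 0 and 0 against sham, with 0 of all genes in both and 4583 and 1767 at an unadjusted p under 0.05. With the numbers crossed, a fit added after seeing the data, 8 of the 9 genes and 54 pathway genes were called for the NDST3-treated PD model against sham, beside 1194 of all genes (5.31% higher and 0.881% lower).

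Depth does not limit the well-counted genes, but Il1b and Il1rn had 6 to 20 counts in the sham libraries. The lowest and highest log2 fold changes of Il1b for the PD model against sham were 1.47, by limma on log2(FPKM + 1), and 5.07, without the first sham library.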
